A study of Mus musculus with 16 samples.

Results

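*Grb10*, the gene for an imprinted adaptor protein of growth factor receptors, was examined in chimeric mouse embryos as 1 of 29453 genes counted. It was chosen by its measured level in null against WT cells, with results of these data known. Every null against WT value of *Grb10* below is therefore a description, and the calls given for it are not read as tests. Embryonic stem cells (ESCs) homozygous null for *Stat3*, the gene of a transcription factor activated by cytokines, had been made to express the red fluorescent protein tdTomato and were injected into CD1 host blastocysts. Chimeras of 3 stages, E7.5, E8.5 and E9.5 (E for embryonic day), were collected and sorted into tdTomato-positive cells (null, from the donor ESCs) and tdTomato-negative cells (WT, from the host), and each fraction went to droplet single-cell RNA-seq of transcript 3′ ends with unique molecular identifiers (UMIs). Each genotype had 2 libraries per stage at E7.5 and E8.5 and 4 at E9.5. Together they held 37841 analysed cells of 87 cell types. All null cells descended from cultured donor ESCs and all WT cells from uncultured host cells, so the *Stat3* genotype, the ESC line and its time in culture cannot be told apart. E7.5 and E8.5 embryos were pooled and at E9.5 the study used fewer embryos than libraries, so the libraries of a group may not be independent embryos.

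GRB10 binds the activated insulin and insulin-like growth factor 1 (IGF1) receptors through its SH2 domain, restrains their signal and limits the growth of the fetus. The gene is imprinted: in most tissues the copy inherited from the mother is expressed, whereas in neurons the paternal copy is expressed from other promoters. The UMI counts used here do not carry the parent of origin.

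In GENCODE M21 (GRCm38) *Grb10* (ENSMUSG00000020176.17) lay on the minus strand of chromosome 11 from 11930508 to 12038683, 88.8 Mb from *Stat3* on the same chromosome. Of its 9 annotated transcripts 2 run to the 3′ end of the gene, from different starts, and 3′ counts add the RNA of both. RefSeq gives a promoter window at each of these starts (GRCm38.p6, 300 bases, minus strand). Both are shown because the use of separate promoters is what the locus is known for and the counts cannot separate them. No value here ties either window to a tissue or to a parental copy. Protein-coding transcripts Grb10-207 and Grb10-209 start further downstream, at 12026732 and 12026324. Capitals mark the CG dinucleotides (CpG), at which imprinted genes carry DNA methylation. The upstream window is chr11:12037371-12037670 and the downstream window is chr11:12027922-12028221.
Upstream promoter: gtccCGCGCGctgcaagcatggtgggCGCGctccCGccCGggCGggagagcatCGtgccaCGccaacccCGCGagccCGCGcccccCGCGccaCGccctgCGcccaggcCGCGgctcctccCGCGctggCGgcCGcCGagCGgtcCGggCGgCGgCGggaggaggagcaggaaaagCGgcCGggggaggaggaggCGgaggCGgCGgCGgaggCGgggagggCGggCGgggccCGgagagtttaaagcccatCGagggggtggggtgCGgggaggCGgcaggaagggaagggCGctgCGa
Downstream promoter: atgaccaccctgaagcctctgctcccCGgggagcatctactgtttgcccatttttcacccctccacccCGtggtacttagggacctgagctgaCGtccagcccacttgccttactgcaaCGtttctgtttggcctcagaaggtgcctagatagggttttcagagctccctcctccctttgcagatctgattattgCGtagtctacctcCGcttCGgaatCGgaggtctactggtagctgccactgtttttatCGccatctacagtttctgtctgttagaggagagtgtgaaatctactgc
The upstream window held 45 CpG, a number reached by 1.93% of 32851 RefSeq promoter windows, and the downstream window held 9, reached by 45.8%. Methylation was not measured.

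Before any result, 1 library has to be named. At E8.5 the *Grb10* level of null library B stood at that of the WT libraries, whereas the other 7 null libraries were low, and results that rest on it are given with and without it. Its label was not contradicted by the targeted gene: *Stat3* stood at 1.54 CPM (UMIs per 1000000 UMIs) in E8.5 null B, within the 1.16 to 2.53 of the other null libraries and under the 6.14 to 9.31 of the WT libraries. Over cell types *Stat3* was called lower in 2 of 3 types tested at E7.5, 0 of 4 at E8.5 and 8 of 13 at E9.5, where 0.106%, 0.0319% and 0.0641% of all tests were. In the 4 types of E8.5 its log2 fold change was -4.02 to -1.28 (median -1.89), with 3 at an unadjusted p under 0.05 and 1 called by DESeq2. tdTomato stood at 66.1 CPM in it and at 139 to 237 in the other null libraries, and 72.3% of its cells held a tdTomato UMI against 89.8% to 98.3%. Libraries held 360 to 4327 cells, with medians of 18205 to 57791.5 UMIs per cell, and E9.5 WT C and D shared 292 barcodes where no other pair of libraries shared more than 8. Of these 292 barcodes 10 carried the same cell type in both libraries, so they were counted as separate cells. Cell types are the authors' labels, transferred from an atlas after imprinted genes had been set aside. Types of the brain, spinal cord and optic vesicle were grouped as neural. Each of 9 neural markers, among them *Sox2*, *Pax6* and *Tubb3*, was higher in neural than in other cells of all 12 libraries of E8.5 and E9.5. Among the neural types compared between null and WT, only Dorsal midbrain neurons is named for neurons, and most others are labelled as progenitors. The neural group is therefore not read as a tissue of paternal expression.

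*Grb10* was abundant in WT cells at each stage and 24.6-fold to 32.9-fold lower in null cells at E7.5 and E9.5. Levels are those of the summed UMIs of a library or cell type. Over whole libraries, WT A and B of E7.5 stood at 211 and 193, WT A and B of E8.5 at 267 and 266, and the 4 WT libraries of E9.5 at 352, 365, 373 and 352. Null A and B of E7.5 stood at 7.42 and 4.88, null A and B of E8.5 at 12.6 and 262, and the 4 null libraries of E9.5 at 12.03, 22.4, 9.97 and 9.82. Every null library except E8.5 null B lay below every WT library. The null values rest on 101 to 2043 *Grb10* UMIs per library outside E8.5 null B, which held 8693.

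Neural and other cells of E9.5 were alike in that their 4 null libraries stood far under the WT libraries, and at E8.5 null A did so in both. At E9.5 neural cells of WT A to D stood at 340, 348, 364 and 335 and those of null A to D at 12.7, 23.1, 11.2 and 9.24, means of 347 ± 13.0 and 14.1 ± 6.21 (SD, n = 4 libraries each). The other cells of WT A to D stood at 360, 378, 377 and 357 and those of null A to D at 11.6, 21.9, 9.30 and 10.1, means of 368 ± 11.1 and 13.2 ± 5.87 (SD, n = 4 each). Null cells thus held 4.06% of the WT level in neural and 3.59% in other tissue, log2 differences of -4.62 and -4.80, and null B was the highest null library in both. At E8.5 the neural cells stood at 279 and 270 in WT, 15.2 in null A and 278 in null B. The other cells of E8.5 stood at 264 in both WT libraries, 11.8 in null A and 258 in null B, so null B lay between the WT libraries in neural cells and below both in other cells. With both null libraries the E8.5 log2 differences were -0.91 in neural and -0.97 in other cells, and without null B they were -4.17 and -4.49. At E7.5 neural types held 3 WT and 2 null cells and were left out, and the other cells stood at 211 and 193 in WT and at 7.41 and 4.88 in null, a log2 difference of -5.04.

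**Figure D1:**
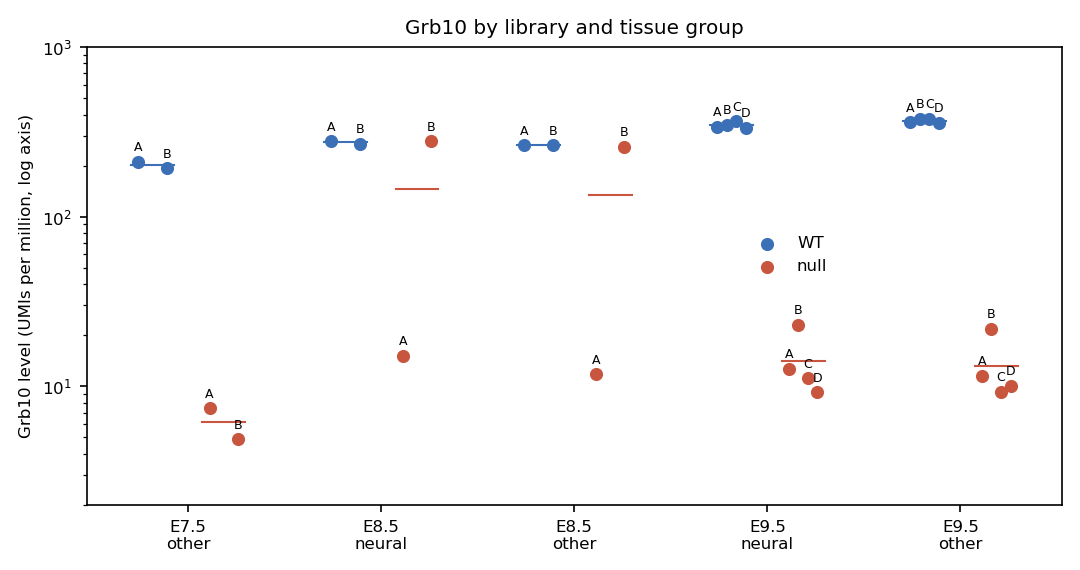
*Grb10* level (CPM, log axis) in neural and other cells of each library, 1 lettered point per library and a line at the mean of each group. WT points lie between 193 and 378 and null points between 4.88 and 23.1, except E8.5 null B at 278 (neural) and 258 (other).

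At E9.5 the libraries were separated in each of the cell types that could be compared. A type was compared where 2 or more libraries per genotype held over 15 of its cells. Of 37 such types 11 were neural, and the highest null library stood under the lowest WT library in 37 of 37. Over whole libraries of E9.5 that held for 3.68% of 12963 genes. That share takes every library of the stage, whereas some types had as few as 2 per genotype, where separation is easier. The share of all genes within types was not counted, so nothing is read from the 37 of 37. The fitted log2 fold changes (edgeR on UMIs summed per library and type) ran from -7.47 to -2.69, with a median of -4.60 over the 11 neural types and -4.74 over the 26 others. At an adjusted p under 0.05 and an absolute log2 fold change over 1 *Grb10* was called lower in 30 of 37 types (10 of 11 neural and 20 of 26 others), where 0.0641% of all 324583 gene and type tests were called lower. This contrast chose the gene, so nothing is read from that count. With more than 50 cells asked of a library it was 12 of 14 types. Null and WT libraries of the same letter deviated together, and with the letter as a block 25 types could be fitted. Of these, 10 were called lower against 23 without the block, with log2 fold changes of -5.88 to -3.49, where 0.0941% of all tests were called lower in the blocked fits.

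Means of types ran from 1.23 to 98.5 in null cells and from 45.4 to 754 in WT cells. Presomitic mesoderm, the precursor of the somites, had the largest difference at -7.47 (SE 0.27). WT A and D stood at 326 and 335 and null A and D at 1.68 and 1.90, which rest on 2 UMIs each. Counts this low carry more error than that SE shows. Cardiopharyngeal progenitors of the second heart field (SHF) followed at -6.41 (SE 0.30), with WT B to D between 368 and 477 and null A to C at 2.61, 0 and 9.65, where the count of 0 in null B allows a level of up to 4.51. Allantois (-6.32, SE 0.46), Sclerotome (-5.88, SE 0.11) and Limb mesoderm (-5.79, SE 0.24) completed the 5 largest. In Sclerotome, the source of vertebrae and ribs, WT A to D stood at 400, 376, 383 and 406 and null A to D at 7.91, 7.33, 6.86 and 3.86. The 4 libraries of each genotype lay close together there, and the groups did not overlap.

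At the other end stood Thyroid primordium, at -2.69 (SE 0.35), with WT A, B and D between 570 and 761 and null A and B at 57.1 and 140. Placodal ectoderm (-3.00, SE 0.51), Late dorsal forebrain progenitors (-3.19, SE 0.18), Venous endothelium (-3.39, SE 0.18) and Amniotic ectoderm (-3.41, SE 1.71) were next. In Amniotic ectoderm null A stood at 3.30 and null B at 172, so its mean rests on null B. Late dorsal forebrain progenitors stood at 260, 274, 261 and 230 in WT A to D and at 22.9 and 34.9 in null A and B, the null libraries with more than 15 of these cells. Null cells without a tdTomato UMI made up 9.26%, 4.70%, 6.86%, 2.82% and 4.50% of these 5 types, in the order named. In the 5 types with the largest differences they made up 0.532% to 2.84%. These shares are over all stages without E8.5 null B, and their part in the order of types was not tested. With only null cells that held a tdTomato UMI, the E9.5 log2 fold changes ran from -7.47 to -3.06. Across the 37 types the log2 levels of null and WT cells had a Pearson r of 0.50, a description over types that share libraries.

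**Figure D2:**
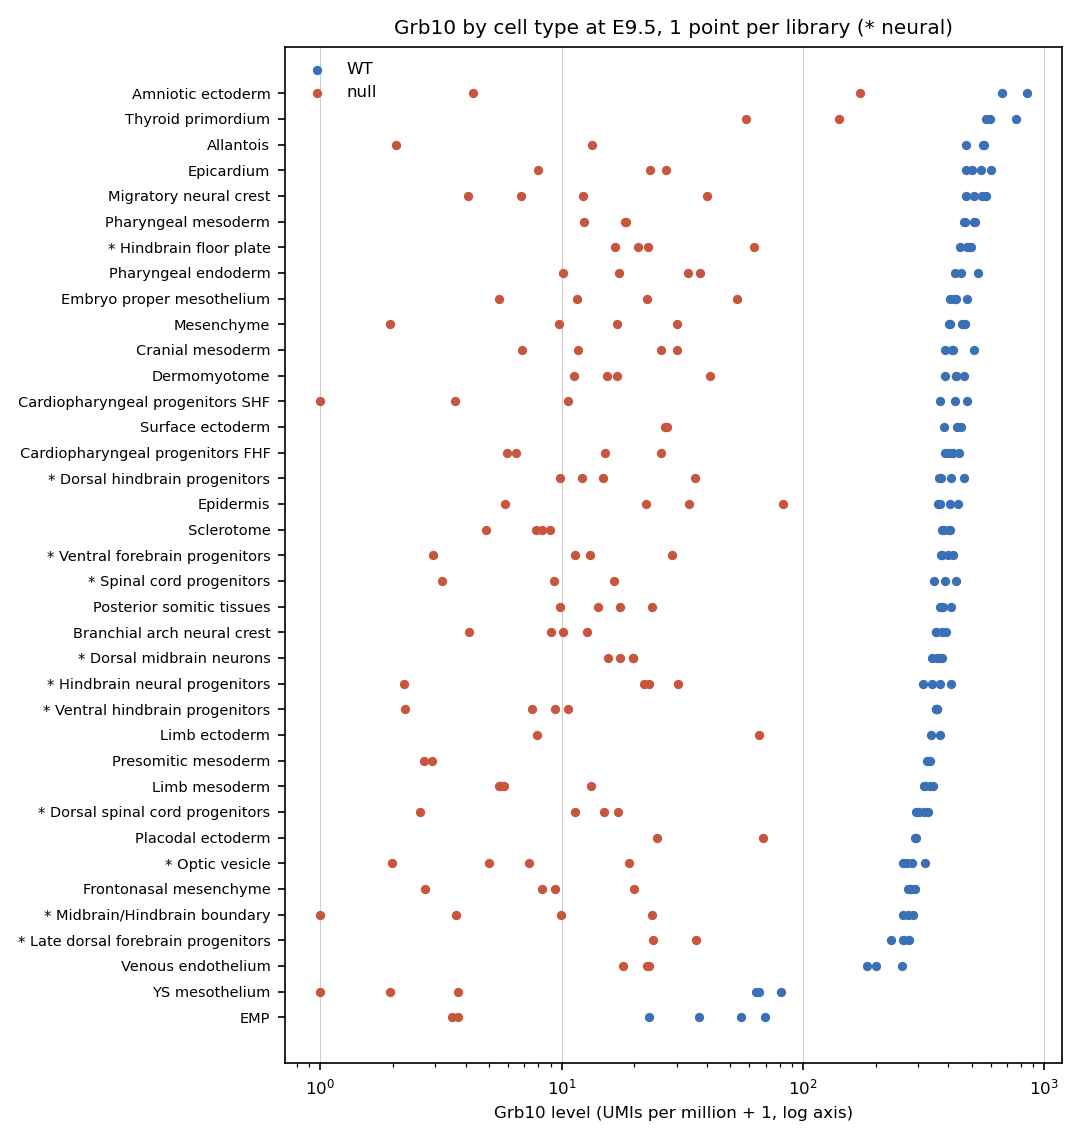
*Grb10* level by E9.5 cell type (CPM + 1, log axis), 1 point per library with more than 15 cells, types ordered by their WT mean and neural types starred. In all 37 types the null points lie left of the WT points, and the highest null point is 172, in Amniotic ectoderm.

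At E8.5 the 2 null libraries stood apart from each other in the same cell types. In each of 20 types null A lay below null B and both WT libraries, at log2 differences of -7.75 to -2.49 from the WT mean (median -4.40). Null B differed from the WT mean by -0.63 to 0.26 (median -0.22). It lay between the WT libraries in 2 types, above both in 4 and below both in 14. How many other genes order the libraries in these ways was not counted, so nothing is read from these counts of types. In Hindbrain floor plate, the ventral midline of the hindbrain, WT A and B stood at 556 and 589, null A at 31.5 and null B at 661. In Mesenchyme WT A and B stood at 340 and 320, null A at 7.04 and null B at 232. In Erythroid cells WT A and B stood at 152 and 144, null A at 1.63 and null B at 113. The order of types in null B followed that of WT, with a Pearson r of 0.95 between log2 levels over the 20 types as a description.

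With both null libraries *Grb10* was called lower in 0 of the 20 E8.5 types by edgeR, in 0 by DESeq2 and in 0 at an unadjusted p under 0.05, where 0.0319% of all tests were called lower. The fitted log2 fold changes ran from -2.51 to -0.86. The largest were those of YS mesothelium (-2.51, SE 1.45), Cranial mesoderm (-2.01, SE 2.17), Mesenchyme (-1.66, SE 1.83), Erythroid (-1.64, SE 2.16) and Midbrain/Hindbrain boundary (-1.63, SE 2.10). The smallest were those of Thyroid primordium (-0.86, SE 1.18), Hindbrain floor plate (-0.86, SE 1.82), Optic vesicle (-1.03, SE 1.70), Pharyngeal endoderm (-1.24, SE 1.52) and Lateral plate mesoderm (-1.25, SE 1.70). In a fit without null B, which takes the spread from all 16 libraries, the range was -7.70 to -2.50 and 9 of 20 types were called lower, where 0.034% of all tests were. With the letter as a block and all 16 libraries in the fit, 0 of 18 types were called lower (log2 fold changes -2.53 to -1.21), where 0.0402% of all tests were. Here too the contrast is the one that chose the gene.

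**Figure D3:**
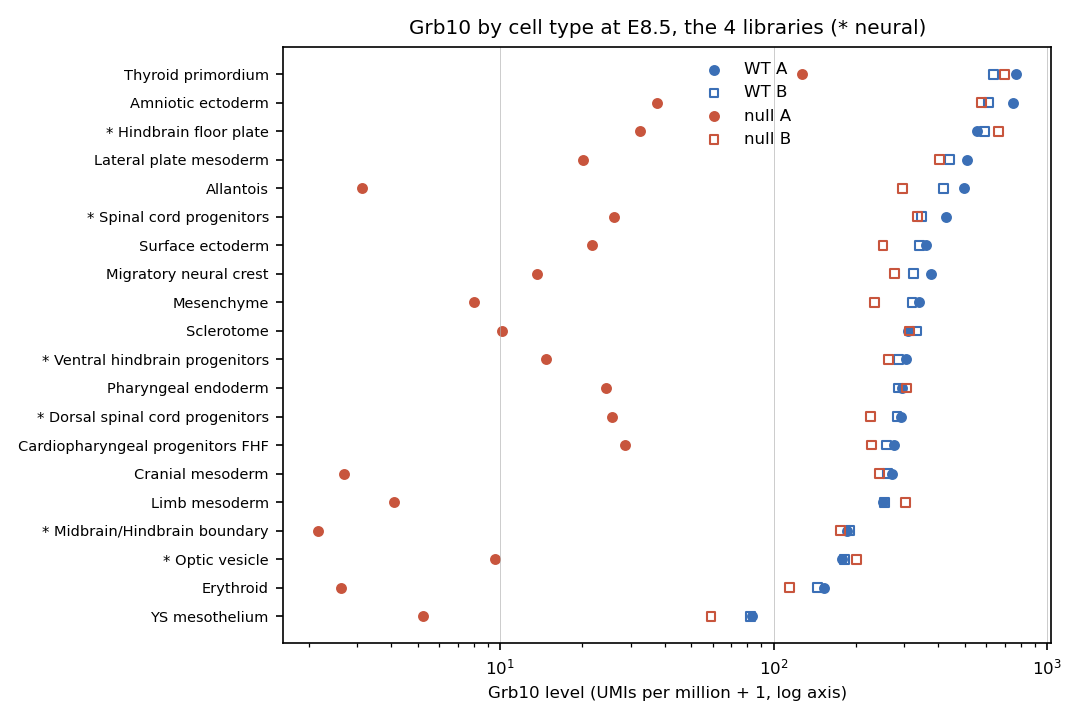
*Grb10* level in 20 E8.5 cell types (CPM + 1, log axis) for WT A and B and null A and B, neural types starred. Null A lies left of the other 3 libraries in 20 of 20 types, and null B lies among or near the WT points.

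At E7.5, the stage of gastrulation, 7 types had enough cells, and the null libraries stood under the WT libraries in 7 of 7. Over whole libraries of E7.5 that held for 26.1% of 12963 genes, so nothing is read from that count. *Grb10* was called lower in 7 of 7, where 0.106% of all tests were called lower, again by the contrast that chose the gene. With the letter as a block and all 16 libraries in the fit 2 types could be fitted, at -6.02 (SE 2.04) and -5.55 (SE 1.44). Of these 0 were called, where 0.077% of all tests were called lower. Their spread came also from E8.5 null A and B, which stood far apart, so nothing is read from the 0 calls. Blood progenitors had the largest log2 fold change at -7.26 (SE 0.26). WT A and B stood at 154 and 140 and null A and B at 0.908 and 0.816, which rest on 7 and 1 UMIs. Here too the counts carry more error than that SE shows. Intermediate mesoderm (-6.17, SE 0.22), Ectoderm (-5.95, SE 0.25), Lateral plate mesoderm (-5.95, SE 0.24), Mesenchyme (-5.51, SE 0.19) and Caudal epiblast (-5.36, SE 0.23) lay between. Paraxial mesoderm had the smallest at -4.84 (SE 0.22), from 282 and 232 in WT to 10.1 and 3.68 in null.

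Per cell, most null cells had no *Grb10* UMI outside E8.5 null B, and most WT cells had 1 or more. At a fixed depth of 10000 UMIs per cell, drawn at random from each cell and reached by all cells, 79.1% to 93.4% of the cells of the 8 WT libraries held a *Grb10* UMI, and 1.67% to 8.63% of those of the 7 low null libraries. In E9.5 neural cells the share was 93.4% ± 0.812 in WT and 7.08% ± 2.21 in null (SD, n = 4 libraries each; 99.3% and 13.3% without thinning). In the other E9.5 cells it was 91.3% ± 1.16 and 6.13% ± 1.10 (97.6% and 14.9% without thinning). E8.5 null B held a *Grb10* UMI in 88.7% of its neural and 86.0% of its other cells after thinning, beside 87.2% to 90.2% and 85.4% to 86.9% in the WT libraries. No cell type here is free of *Grb10*, so the share that free RNA gives could not be set beside these. In the WT type with the lowest level, E9.5 EMP (erythro-myeloid progenitors), the thinned shares were 45.8%, 23.3%, 18.2% and 44.0% in WT A to D, above those of the low null libraries.

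**Figure D4:**
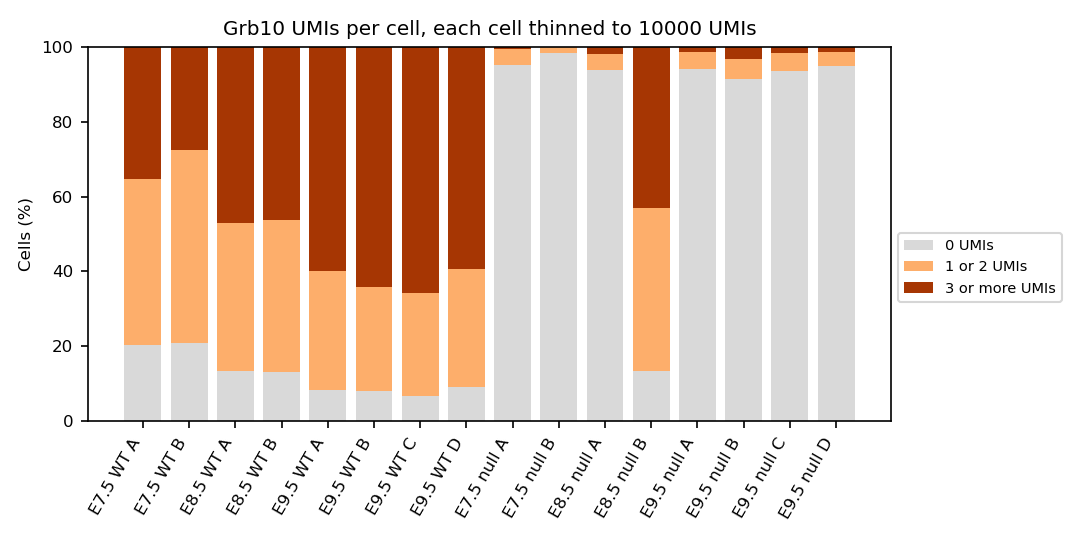
Share of cells (%) of each library with 0, 1 or 2, or 3 or more *Grb10* UMIs after thinning to 10000 UMIs per cell. In the 7 low null libraries 91.4% to 98.3% of cells have none, whereas E8.5 null B, at 13.4%, lies beside the E8.5 WT libraries at 13.4% and 13.0%.

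Cells with several *Grb10* UMIs were few in the low null libraries, and fewer of them than of the rest held a tdTomato UMI. Cells with 3 or more thinned *Grb10* UMIs made up 0% to 3.11% of such a library and 27.5% to 65.7% of a WT library. Such cells numbered 63, 75, 24 and 21 in null A to D of E9.5, and of them 71.4%, 44.0%, 54.2% and 66.7% held a tdTomato UMI against 98.3%, 97.8%, 98.9% and 98.8% of the rest. E8.5 null A held 71, of which 28.2% held one against 91.0% of the rest, and E7.5 null A held 14, of which 92.9% did against 97.2%. E7.5 null B held 0. *Stat3* stood at 1.74 to 5.72 CPM in such cells and at 1.16 to 2.52 in the rest. Among null cells without a tdTomato UMI the *Grb10* level was 132, 289, 236 and 169 in E9.5 null A to D, and among those with one it was 10.3, 13.6, 7.33 and 8.64. Cells without a tdTomato UMI numbered 90, 94, 29 and 26 in these libraries. The level without and with a tdTomato UMI was 60.4 and 6.90 in E8.5 null A (390 cells without), 33.2 and 6.75 in E7.5 null A (61 cells) and 129 and 1.98 in E7.5 null B (10 cells). In E8.5 null B the level was 278 in 828 cells with a tdTomato UMI and 221 in 318 cells without. Its neural cells stood at 271 with and 290 without one, and its other cells at 280.1 with and 197 without one. The part of WT cells sorted as null in these values was not tested. Among the WT-sorted singlets that had been set aside for a tdTomato UMI, the level was 313 in 485 cells with 1 or 2 such UMIs and 102 in 111 cells with 3 or more.

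In WT cells alone *Grb10* differed widely between cell types at E9.5. Over 40 types with at least 2 libraries the means ran from 45.4 to 754 CPM, with a median of 385. Amniotic ectoderm (754 ± 126, SD, n = 2 libraries), Thyroid primordium (642 ± 104, n = 3), Allantois (530 ± 51.2, n = 3), Epicardium (529 ± 55.4, n = 4) and Migratory neural crest (526 ± 44.2, n = 4) stood at the top. Venous endothelium (213 ± 38.7, n = 3), Erythroid cells (144 ± 4.69, n = 4), Megakaryocyte progenitors (89.3 ± 23.8, n = 2), YS mesothelium (69.0 ± 9.36, n = 3) and EMP (45.4 ± 20.5, n = 4) stood at the bottom. Between them most neighbours did not differ beyond their spread: of 39 pairs of neighbours 30 differed by less than 1 pooled SD, and in 35 the library ranges overlapped. The 4 breaks without overlap lay between Thyroid primordium and Allantois, between Limb ectoderm and Presomitic mesoderm, between Venous endothelium and Erythroid cells, and between Erythroid cells and Megakaryocyte progenitors. Among neural types Hindbrain floor plate was highest (477 ± 21.0, n = 4) and Late dorsal forebrain progenitors lowest (256 ± 18.4, n = 4). The E8.5 and E9.5 WT levels of 31 shared types had a Pearson r of 0.90 on the log2 scale, given as a description.

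The 4 genes whose WT level followed *Grb10* most closely over the 37 types were *Spats2* (Pearson r 0.86), *Zfp462* (0.86), *Aif1l* (0.83) and *Enah* (0.83), out of 7980 genes with a mean over 10 CPM. The 5 whose null minus WT difference followed that of *Grb10* most closely were *Atp6v0b* (0.68), *H19* (0.65), *Micu2* (0.63), *Pafah1b3* (0.62) and *Epb41l3* (0.61). All points share libraries and depth, and the genes were taken for having the highest values. *H19* is an imprinted RNA expressed from the maternal copy.

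Whether WT neural cells held less or more *Grb10* than other WT cells depended on which types were counted as neural and on how the level was taken. In E9.5 WT A to D the neural minus other difference was -20.6, -30.3, -13.0 and -22.6 CPM, lower in 4 of 4 libraries. A fit with the library as block gave a log2 fold change of -0.09 (SE 0.03, adjusted p = 0.0103, edgeR's quasi-likelihood test with Benjamini-Hochberg adjustment), and the same fit called 32.7% of 14475 genes lower at any fold, so such a call was common. The sign turned with neural crest, neuromesodermal progenitors (NMPs), placodes and otic types counted as neural (log2 fold change 0.03, adjusted p = 0.294), and without WT B the adjusted p was 0.0569. In E8.5 WT A and B the difference was 14.7 and 5.37, higher in neural cells of 2 of 2. Over the 6 WT libraries of both stages the mean difference was -11.1 ± 17.5 (SD), with p = 0.188 by an exact two-sided sign-flip permutation test. With levels averaged over cell types it was -21.2, and with mitochondrial, ribosomal protein and haemoglobin genes left out of the totals it was -29.7, each with p = 0.0312, the smallest that 6 libraries allow, and with the wider neural group it was 18.5, with the same p (exact sign-flip permutation tests). That p needs the same sign in 6 of 6 libraries, so the E8.5 libraries lay on the lower side under the first pair of alternatives and on the higher side under the last. In thinned cells of E9.5 WT A to D, 93.2%, 92.5%, 94.5% and 93.3% of neural cells held a *Grb10* UMI against 90.5%, 91.7%, 92.7% and 90.2% of other cells, higher in neural cells in 4 of 4. The mean number of thinned *Grb10* UMIs per cell was 3.42, 3.57, 3.79 and 3.46 in neural cells against 3.75, 3.96, 3.85 and 3.62 in other cells, lower in 4 of 4.

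WT libraries of later stages held more *Grb10*. Within cell types the log2 fold changes from E8.5 to E9.5 were above 0 in 23 of 31 and below 0 in 8. Their median was 0.21, beside 0.012 over all genes. Over whole WT libraries the mean was 202 at E7.5, 267 at E8.5 and 360 at E9.5. Every library of a later stage lay above every library of an earlier one. The share of all genes that did so was not counted, so nothing is read from that order. The exact two-sided permutation test of E9.5 against E8.5 gave p = 0.0667, the smallest that 4 against 2 libraries allow, and E8.5 against E7.5 gave 0.333, the smallest for 2 against 2. Whole libraries also differ in their mix of types, with 23.3% and 23.5% neural cells in E8.5 WT and 25.7% to 47.1% in E9.5 WT, and the part of that mix in the difference was not tested. Between E7.5 and E8.5, 2 types could be fitted (edgeR). Lateral plate mesoderm rose by a log2 fold change of 1.03 (SE 0.10, adjusted p = 4.37e-07) and was called (DESeq2 also called 1 of 2), where 5.24% of all tests were called higher, and Mesenchyme stood at 0.23 (SE 0.11, adjusted p = 0.161). The call of Lateral plate mesoderm was lost in each of the fits that left out 1 library and in the fit of all 16, in which 0 types were called. There its log2 fold change was 0.91 to 1.14 (SE 1.57 to 1.70) and 1.03 (SE 1.15), so the estimate stayed near 1.03 and the error grew. These fits took their spread also from the null libraries, and E8.5 null A and B stood at 19.1 and 404 in this type. Nothing is therefore read from the lost call.

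Between E8.5 and E9.5, *Grb10* passed an adjusted p under 0.05 with a higher level in 10 of 31 WT types and with a lower level in 1, where 4.48% of tests were higher and 5.16% lower at any fold. No type passed a log2 fold change of 1 (0 of 31 by edgeR and 0 by DESeq2, with 17 at an unadjusted p under 0.05), where 2.17% of tests were called higher. The largest rise was in Pharyngeal mesoderm (0.84, SE 0.14, adjusted p = 5.44e-05), and Pharyngeal endoderm (0.53, SE 0.09, adjusted p = 0.000711), Cardiopharyngeal progenitors of the first heart field (FHF; 0.49, SE 0.09, adjusted p = 0.000933) and Cranial mesoderm (0.48, SE 0.11, adjusted p = 0.00128) rose as well. Migratory neural crest (0.43, SE 0.08, adjusted p = 0.00192), Branchial arch neural crest (0.23, SE 0.07, adjusted p = 0.0266) and Limb mesoderm (0.23, SE 0.07, adjusted p = 0.0483) rose by less. Of the neural types Optic vesicle (0.47, SE 0.09, adjusted p = 0.00031), Dorsal hindbrain progenitors (0.47, SE 0.10, adjusted p = 0.0047) and Midbrain/Hindbrain boundary (0.39, SE 0.11, adjusted p = 0.0264) rose, and Hindbrain floor plate fell (log2 fold change -0.42, SE 0.08, adjusted p = 0.00206).

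Stage changes within null cells rest on the 2 E8.5 null libraries that stood apart. Between E7.5 and E8.5 the null log2 fold changes were 5.77 (SE 2.47) in Lateral plate mesoderm and 4.15 (SE 2.48) in Mesenchyme, with 0 of 2 called by edgeR, 0 at an unadjusted p under 0.05 and 1 by DESeq2, where 4.56% of tests were called higher. Without E8.5 null B they were 2.33 (SE 0.39) and 0.17 (SE 1.10), in a fit with the other libraries of all groups (edgeR). Between E8.5 and E9.5, 0 of the 17 types in which *Grb10* passed the filter were called lower by edgeR, 3 had an unadjusted p under 0.05 and 5 were called by DESeq2, where 0.895% of tests were called lower. Over these 17 types the log2 fold changes were -4.66 to -2.02 with E8.5 null B and -1.57 to 3.07 without it, with 9 of them below 0.

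Of the other genes of the insulin and IGF pathway few were called between null and WT cells, and those were ligand and binding protein genes. The list held 58 genes: ligands and their binding proteins, receptors, adaptors, the PI3K-AKT, mTOR and MAPK branches and their outputs. At E9.5, 56 of them were tested in 1737 gene and type tests. *Rps6kb1*, of the mTOR branch, was tested at no stage, because a rule on gene names had left it out. There were 5 calls higher and 2 lower (0.288% and 0.115%), beside 0.0558% of all tests higher and 0.0641% lower. The median log2 fold change was -0.0078, beside -0.0010 over all genes. DESeq2 called 7 higher and 3 lower, and 147 tests had an unadjusted p under 0.05. *Igf2*, the fetal growth factor, which is itself imprinted, was higher in 4 of 37 types (median log2 fold change 0.89). *Igfbp5*, for a binding protein of IGFs, was higher in 1 of 37, and *Igfbp3*, for another, was lower in 2 of 24 types. At E7.5, 334 tests gave 4 calls higher (1.20%) and 0 lower, all 4 of *Igf2*, beside 0.0799% of all tests higher. The median was -0.050, beside 0.0014 over all genes. Without *Igf2* the higher calls were 0 at E7.5 and 1 at E9.5. At E8.5, 909 tests gave 0 calls by edgeR (59 at an unadjusted p under 0.05, 0 by DESeq2), with a median of -0.0015 beside 0.0015 over all genes. With the library letter as a block the pathway calls were 2 higher, both of *Igf2*, and 2 lower, both of *Igfbp3*, over 25 types at E9.5, where 0.0876% of all blocked tests were higher. They were 1 higher at E8.5, of *Igfbp2*, over 18 types (0.0339% of all blocked tests) and 1 higher at E7.5, of *Igf2*, over 2 types (0.0674%).

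The receptor genes and the adaptor genes had 0 calls at each of the 3 stages, by edgeR and by DESeq2. At E9.5, 17 of 190 receptor tests and 22 of 364 adaptor tests had an unadjusted p under 0.05. Over all E9.5 tests 0.0558% were called higher and 0.0641% lower, so nothing is read from 0 calls in lists of this size. There *Igf1r*, the receptor of IGF1 and IGF2, had a median log2 fold change of -0.049 over 37 types and *Insr*, the insulin receptor, of -0.17 over 32. *Grb7* and *Grb14*, the closest relatives of *Grb10*, had medians of -0.17 over 9 types and -0.12 over 10. *Grb2*, an adaptor that links receptors to RAS, had a median of -0.038 over 37. The median of *Grb10* over the same 37 types was -4.69.

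Among other imprinted genes the calls between null and WT cells fell on 4 genes at E9.5. Of 25 listed genes 24 were in the matrix. At E9.5, 767 tests gave 24 calls higher and 11 lower (3.13% and 1.43%), beside 0.0558% and 0.0641% of all tests, with a median log2 fold change of -0.00080, and DESeq2 called 26 higher and 23 lower. When null D was left out the 11 lower calls became 21, and they became 5 on leaving out null A, 6 on leaving out null B and 7 on leaving out either WT A or WT D, and the 24 higher calls were 21 to 32 with 1 library left out, when 28 to 37 types could be fitted. *Zdbf2*, expressed from the paternal copy, was higher in 20 of 37 types (median 1.03) and *Igf2* in 4, whereas *H19* was lower in 9 of 37 (median -3.73) and *Nnat*, a paternally expressed gene of neural tissue, in 2 (median -0.99). *H19* stood at 14.3, 26.9, 17.8 and 113 CPM in E9.5 null A to D and at 476 to 733 in E9.5 WT, so null D stood above the other null libraries and under WT. *Nnat* stood at 200.1, 20.5, 455 and 244 CPM in E9.5 null A to D and at 374 to 465 in E9.5 WT, so null C lay inside the WT range and null B far below the other null libraries. Its median was -0.61 with 2 calls without null B and -1.54 with 3 without null C, and it was called in 0 types without null A, WT A or WT D and in 1 without null D. With the library letter as a block the imprinted calls at E9.5 were 20 higher, 18 of *Zdbf2* and 2 of *Igf2*, and 7 lower, 6 of *H19* and 1 of *Zrsr1*, over 25 types, and *Nnat* was called in 0. At E8.5, 414 tests gave 7 calls higher, 6 of them of *Zdbf2* and 1 of *Nnat*, and 1 lower, of *H19*, beside 0.029% of all tests higher and 0.0319% lower. Without E8.5 null A these were 3 higher and 9 lower, and without E8.5 WT A 4 and 2. With the letter as a block they were 6 and 0. At E7.5, 147 tests gave 5 calls higher, 4 of *Igf2* and 1 of *Zdbf2*, and 5 lower, all of *H19*, beside 0.0799% of all tests higher and 0.106% lower, and the higher calls were 2 without E7.5 null A and 3 without E7.5 null B. With the letter as a block 2 types could be fitted, with 1 call higher and 0 lower. The list's median was -0.047 at E8.5 and -0.10 at E7.5. *Igf2* and *Igf2r* stand in both lists.

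E8.5 null B did not stand at the WT level for several of these genes, of which 5, chosen after their values were seen, are given. *H19* stood at 22.6 CPM in it, at 246 in E8.5 null A, at 14.3 to 113 in the other 6 null libraries and at 541 and 461 in E8.5 WT A and B, so the 2 E8.5 null libraries stood in the opposite order to that of *Grb10*. *Zdbf2* stood at 83.5 in it, below the 97.8 to 149 of the other null libraries and above the 45.2 and 47.2 of E8.5 WT. *Igf2* stood at 368 in it against 207 and 162 in E8.5 WT. *Dlk1*, a paternally expressed growth regulator, stood at 21.4 in it, below the 33.3 to 307 of the other null libraries and the 121 and 94.9 of E8.5 WT. *Meg3*, the maternally expressed RNA of the same imprinted cluster, stood at 566, above the 304 to 496 of the other null libraries and the 309 and 319 of E8.5 WT. Of the 24 genes 4 stood above and 3 below the range of the other 7 null libraries in E8.5 null B (16.7% and 12.5%), where 7.32% and 19.2% of the 12963 genes with a mean over 1 CPM did, so nothing is read from these counts. The part of these differences in the *Grb10* level of that library was not tested.

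**Figure D5:**
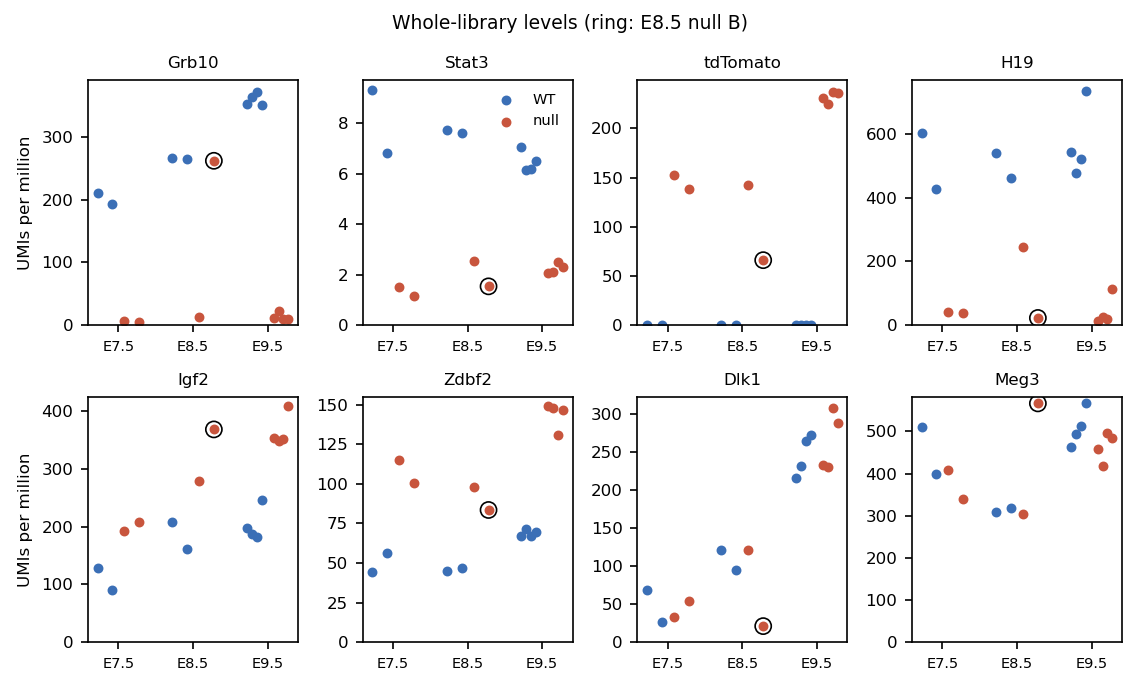
Whole-library levels (CPM, each panel with its own axis from 0) of *Grb10*, *Stat3*, the tdTomato reporter and 5 other imprinted genes in WT and null libraries by stage, with E8.5 null B ringed. E8.5 null B stands with WT for *Grb10* (262), with the null libraries for *Stat3* (1.54) and *H19* (22.6), and apart for *Dlk1* (21.4) and *Meg3* (566). WT libraries hold no tdTomato because WT-sorted cells with such a UMI were left out.

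None of the genes next to *Grb10* on chromosome 11 was called lower in null cells at any of the 3 stages, by edgeR or DESeq2, but a call needs a log2 fold change beyond 1 and was made in 0.0641% of all E9.5 tests, so nothing is read from this count. *Ikzf1*, *Fignl1* and *Ddc* lie on its lower-coordinate side and *Cobl*, *Pom121l12* and *Vstm2a* on the other. *Ddc*, whose nearest base is 32.4 kb away and which encodes an enzyme of dopamine and serotonin synthesis, had a median log2 fold change of 0.31 over 25 types at E9.5 and was called higher in 1 (0 of 21 with the library letter as a block). *Fignl1*, 122 kb away, had a median of -0.36 over 37 types, with 0 called, 19 at an unadjusted p under 0.05 and a lowest adjusted p of 0.000467 (edgeR's quasi-likelihood test). Its whole-library level was 38.8 to 52.8 CPM in the WT and 32.1 to 38.4 in the null libraries of E9.5. It was 48.2 and 46.4 against 32.8 and 43.2 at E8.5, and 44.0 and 39.9 against 32.8 and 31.9 at E7.5, so its null libraries lay below its WT libraries at each stage, by a narrow margin at E9.5. That held for 26.1% of the 12963 genes at E7.5, 11.9% at E8.5 and 3.68% at E9.5, and 14.8%, 19.6% and 3.77% lay the other way. *Cobl*, 198 kb away, had a median of -0.16 over 8 types, with 0 called and 2 at an unadjusted p under 0.05. *Ikzf1* was tested in 1 type at each stage, and *Pom121l12* and *Vstm2a* passed the filter in no type at any stage.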

How the data were processed

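The authors deposited UMI counts per gene and cell, made with Cell Ranger on mm10 with the GRCm38.p5 annotation and the tdTomato sequence. They had filtered cells by UMIs, genes and the percent of mitochondrial UMIs, which is also deposited, called doublets and transferred cell types. Of 41832 cells, 3395 doublets, which have no cell type, and 596 cells of the WT sort that held tdTomato were left out. UMIs were summed per library and cell type and given as CPM. Library letters A to D follow the order of the library names, which no source used here ties to the embryo pools. Over 7973 genes with a mean over 10 CPM, the deviations of null and WT libraries from their group means were correlated within a letter (r 0.227 to 0.473 for the 4 letters of E9.5, each highest with its own letter, 0.223 at E7.5 and 0.470 at E8.5). The letter was therefore also fitted as a block, chosen after the data were seen, where 2 or more residual degrees of freedom were left, which at E7.5 and E8.5 needed all 16 libraries. Types for which 2 or more libraries per group held over 15 cells were fitted with edgeR 4.0.16 in R 4.3.3 (quasi-likelihood, robust, filterByExpr, TMM) over 21275 genes, without predicted, mitochondrial, ribosomal protein, haemoglobin, Y-linked and X-inactivation genes and tdTomato. Ribosomal protein genes were taken out by the start of their names, which also removed *Rps6kb1*, a gene of the pathway list. A call is a Benjamini-Hochberg adjusted p under 0.05, per type over all genes, with an absolute log2 fold change over 1. An SE of an edgeR fit is the absolute log2 fold change over the square root of the test's F statistic. It can be smaller than the counting error where a group rests on few UMIs. The fit was tested on simulated data. DESeq2 1.42.0 was an alternative. Fits that would leave 1 library in a group took their spread from the remaining libraries of all groups. They assume that the lone library varies like the others. These fits, and those said to hold all 16 libraries, used only libraries with over 15 cells of the type, so many held fewer than 16. Named types are the 5 largest and 5 smallest *Grb10* fold changes between null and WT; between WT stages all types that passed are named, chosen after their values were seen. The gene, the tissue grouping and the lists of pathway, imprinted and neighbouring genes were chosen with earlier results of these data known. Exact permutation tests went through every arrangement of the libraries, in Python 3.11.15. Counting limits (3 counts for a count of 0) cover counting error only. The genes most like *Grb10* were to be the first 5 by Pearson r for each pattern, and 1 of them is not reported here.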

Additional observations from a re-analysis of the deposited data

Results flagged for a closer look

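In 51 groups of 4 libraries, each 1 cell type of 1 genotype at E9.5 with more than 15 cells per library, 2 had a library far from the other 3 by Dixon's ratio, where chance gives about 1 in 20. In null Hindbrain floor plate, library B stood at 61.4 *Grb10* CPM and libraries A, C and D at 21.7, 15.7 and 19.8. In null Limb mesoderm, library D stood at 12.2 and libraries A, B and C at 4.75, 4.48 and 4.57. WT libraries of these types stood at 447 to 495 and at 316 to 346.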

How the results depend on the processing

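A block of the embryo pool was not run, because no source ties a library to a pool. With the library letter as a replicate block *Grb10* was called lower in 10 of 25 E9.5 types and 0 of 2 E7.5 types. Pathway calls were 2 higher at E9.5, 1 at E8.5 and 1 at E7.5. Imprinted calls were 7 lower at E9.5, 0 at E8.5 and 0 at E7.5, and 1 higher at E7.5. These fits covered fewer types and had fewer residual degrees of freedom. Those of E7.5 took their spread also from E8.5 null A and B, which stood far apart. Keeping doublets was not run, since they carry no cell type. The block and the fit of all 16 libraries together were chosen after seeing the data. No other cause of a changed value was tested.

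The log2 difference between null and WT at E9.5 stayed between -5.22 and -4.31 in neural and between -5.16 and -4.38 in other cells under all alternatives. With only null cells that held a tdTomato UMI it was -5.22 in E9.5 neural cells and -5.53 in E7.5 cells. Leaving out 1 library gave -5.37 to -4.77 at E7.5 and -4.97 to -4.47 in E9.5 neural cells. At E8.5 it gave -4.17 (without null B) to 0.017 (without null A) in neural and -4.49 to -0.036 in other cells. Without E8.5 null A the E8.5 log2 fold change turned to 0.093 in Pharyngeal endoderm, 0.20 in Optic vesicle, 0.21 in Hindbrain floor plate and 0.030 in Thyroid primordium. When null B was left out instead, these were -3.66, -4.37, -4.18 and -2.50. *Grb10* was called lower in 0 to 9 of 20 E8.5 types and in 21 to 28 E9.5 types with 1 library left out, in 20 of 37 E9.5 types with all 16 libraries in the fit, and in 12 of 14 with more than 50 cells per library.

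The WT neural minus other difference was -16.2 to -7.22 with 1 library left out, 18.5 with neural crest, NMPs and placodes as neural, -21.2 as a mean over types and -29.7 without mitochondrial, ribosomal protein and haemoglobin genes. The E9.5 log2 fold change was -0.11 to -0.091 with 1 library left out, no longer past the threshold without WT B, and 0.032 with the wider neural group. Without thinning, the share of cells with a *Grb10* UMI was 97.0% in WT and 10.6% in null at E7.5, 97.5% and 96.6% in WT neural and other cells at E8.5, 99.3% and 97.6% in those of E9.5, and 13.3% and 14.9% in null neural and other cells of E9.5.

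With 1 library left out, 0 types were called higher in WT between E7.5 and E8.5, 0 to 2 in null (2 with E8.5 null A left out and 1 with null B left out), and 0 to 18 lower in null between E8.5 and E9.5 (18 without E8.5 null A, 1 without E9.5 null A). With all 16 libraries these were 0 higher in WT and 2 lower in null, and DESeq2 gave 1 higher and 5 lower in null. The WT fits without 1 library or with all 16 took their spread also from E8.5 null A and B. Nothing is read from their 0 calls.

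Calls of pathway genes with 1 library left out were 1 to 4 higher and 0 to 2 lower at E7.5, 1 to 2 higher and 0 to 1 lower at E8.5, and 3 to 8 higher and 1 to 3 lower at E9.5. With no filter on low counts they were 1 lower at E7.5, 2 higher and 2 lower at E8.5, and 10 higher at E9.5. With all 16 libraries they were 1 higher at E8.5 and 1 lower at E9.5, and with more than 50 cells 3 higher and 1 lower at E9.5. Calls of imprinted genes with 1 library left out were 2 to 5 higher at E7.5, 3 to 7 higher and 1 to 9 lower at E8.5 (9 without null A), and 21 to 32 higher and 5 to 21 lower at E9.5 (5 when null A was left out, 6 for null B, 7 for WT A or D and 21 for null D). With only tdTomato-holding null cells 3 were higher at E7.5. At E8.5, 3 were lower without the filter, 0 with all 16 libraries, and with more than 50 cells 0 were higher and 0 lower. At E9.5 DESeq2 called 23 lower, and with more than 50 cells 13 were higher and 6 lower.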
